A study of Mus musculus with 120 samples.

Results

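The Akr1c cluster is a row of aldo-keto reductase genes near the centromere of mouse chromosome 13. Its members here were the 8 genes Akr1c6, Akr1c12, Akr1c13, Akr1c14, Akr1c18, Akr1c19, Akr1c20 and Akr1c21. They were found as every probe set whose only gene symbol was one of these names, which gave 9 probe sets of 34945 single-symbol probe sets (18193 genes), 2 of them for Akr1c20. A further probe set that carries both the Akr1c12 and the Akr1c13 symbol was set aside. The genes were picked as a group with the values of MSM and of the chromosome 13 strains known, so their differences in those strains are given as descriptions, without a test.

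Livers of 10-week-old male mice were collected after 4 h of fasting and measured on 120 Affymetrix Mouse Genome arrays. The panel held C57BL/6J (B6, the control), the strain MSM, and 28 consomic strains, in which a chromosome, a part of one, or the mitochondrial genome of MSM stands on the B6 background. Each strain had 2 males and each male 2 arrays, so each value is the mean of a male's arrays, and n is 2 males per strain throughout. Chromosome 13 of MSM was divided between B6-Chr13CMSM (Chr13C, the centromeric part) and B6-Chr13TMSM (Chr13T, the telomeric part), whose boundaries the labels do not give. The other 26 consomic strains and B6 itself, 27 strains and 54 males, have chromosome 13 of B6. No treatment was given, and the 30 groups differ in genotype alone as far as the labels say. In RNA of whole liver, fewer cells of a type and less RNA per cell cannot be told apart.

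Aldo-keto reductases are soluble enzymes that reduce carbonyl groups to alcohols, or run the reverse reaction, with NADPH or NADH as cofactor. Those of the 1C subfamily act on the keto and hydroxy groups of steroid hormones, on prostaglandins and on foreign compounds, and several are well known from the liver, where steroids are inactivated. Akr1c18 is the 20-alpha-hydroxysteroid dehydrogenase that inactivates progesterone, Akr1c6 is a 17-beta-hydroxysteroid dehydrogenase of mouse liver, Akr1c14 is a 3-alpha-hydroxysteroid dehydrogenase, and Akr1c21 is a 3(or 17)-alpha-hydroxysteroid dehydrogenase also known from the kidney. Akr1c12, Akr1c13, Akr1c19 and Akr1c20 are further hydroxysteroid or alcohol dehydrogenases of the same row. In the reference gene order the members run, from the centromeric side, Akr1c14, Akr1c18, Akr1c13, Akr1c19, Akr1c12, Akr1c6, Akr1c20 and Akr1c21. They take places 10 to 17 of the 702 chromosome 13 genes with a probe set, and no other measured gene lies among them.

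The 250 bases before the start of each gene were available for 7 of the 8 members from RefSeq on GRCm38.p6, and those of 4 genes are shown, all 5′ to 3′ on the strand of the gene. Akr1c18 and Akr1c12 are shown because they differed most between the strains, and Akr1c13 and Akr1c19 because they lie between them and varied together with Akr1c12. Capitals mark matches to TAANCATTA, a recurring element picked out after the letters had been read. The Akr1c18 window is chr13:4150647-4150896 on the minus strand, that of Akr1c13 chr13:4190937-4191186 on the plus strand, that of Akr1c19 chr13:4233490-4233739 on the plus strand and that of Akr1c12 chr13:4279400-4279649 on the minus strand.
Akr1c18: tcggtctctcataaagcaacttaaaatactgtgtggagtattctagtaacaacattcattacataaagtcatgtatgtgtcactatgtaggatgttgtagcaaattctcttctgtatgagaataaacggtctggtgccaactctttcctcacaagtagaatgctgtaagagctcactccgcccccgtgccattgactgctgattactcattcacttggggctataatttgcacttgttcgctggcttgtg
Akr1c13: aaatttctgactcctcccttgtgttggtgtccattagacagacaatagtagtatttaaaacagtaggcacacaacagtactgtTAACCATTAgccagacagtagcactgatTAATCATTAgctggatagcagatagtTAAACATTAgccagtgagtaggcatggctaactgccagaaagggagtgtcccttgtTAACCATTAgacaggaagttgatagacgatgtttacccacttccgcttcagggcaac
Akr1c19: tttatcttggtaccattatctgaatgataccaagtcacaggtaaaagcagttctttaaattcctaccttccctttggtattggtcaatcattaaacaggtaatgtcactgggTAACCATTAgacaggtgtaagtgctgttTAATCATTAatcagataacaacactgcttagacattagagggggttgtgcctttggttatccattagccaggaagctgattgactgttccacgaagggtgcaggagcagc
Akr1c12: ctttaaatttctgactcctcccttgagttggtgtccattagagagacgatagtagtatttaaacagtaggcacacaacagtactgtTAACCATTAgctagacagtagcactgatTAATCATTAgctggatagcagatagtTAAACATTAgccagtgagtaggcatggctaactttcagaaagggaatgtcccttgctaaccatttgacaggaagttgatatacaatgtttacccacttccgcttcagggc

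The Akr1c13 and Akr1c12 windows were near copies, with 92.5% identical positions in a global alignment, although the genes lie on opposite strands with Akr1c19 between them. Akr1c19 shared 60.3% with Akr1c13 and 59.0% with Akr1c12, and the other pairs, those with Akr1c18 included, shared 48.0% to 55.9%. The element TAANCATTA, searched on both strands, occurred 4 times before Akr1c13, 3 times before Akr1c12 and 2 times before Akr1c19, and was not in the windows of the other 4 members. Of 32851 such windows of mouse genes, 0.685% held it at least 1 time, 14 at least 2 times, 2 at least 3 times and 1 at least 4 times. The member windows are among those counted, and the 2 with at least 3 matches are the near copies before Akr1c13 and Akr1c12. As the element was picked from these windows, its rarity is a description and tests nothing. The letters TATAAA of the TATA box, searched at any distance from the start, were in the Akr1c6 window alone among the 7 (12.4% of all windows). That match lies far from the start of the gene, and variants of these letters were not searched, so TATA boxes as such were not mapped. TTCNNNGAA, a letter pattern of STAT sites, was in the window of Akr1c19 alone (7.02%). TGACNNNGC, the core of NRF2 sites, was in none of the 7 (10.2% of all windows). These are the letters of the B6 reference, and the MSM sequence of these windows was not analysed here.

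All values are deposited log2 signals, whose spread within a probe set was narrow. The SD between males of a strain was 6.448e-06 at the 10th and 0.0004907 at the 90th percentile of all probe sets. The values were therefore read as compressed to a different degree for each probe set, a reading no label states. On that reading a difference is no fold change, and its size means nothing beside that of another gene. For that reason each difference is also given in SDs, where 1 SD is the spread between males of a strain for the same probe set, pooled over the 30 strains. All 9 member probe sets exceeded the median of all values, 7.417, in all 60 males. Some did so by little, with means over the 27 strains of 7.447 for Akr1c20 (1422061_at), 7.734 for Akr1c18 and 7.771 for Akr1c21. Markers of kidney had mean levels of 6.731 to 7.641 and those of adrenal cortex 6.971 to 7.922. A level above the median thus does not show that a gene is expressed in liver. The 6 hepatocyte markers Alb, Apoa1, Ttr, Cps1, Cyp2e1 and Tat were measured at mean levels of 11.996 to 14.8. None of them passed the test in MSM, Chr13C, Chr13T or the Chr9 strain against B6 (limma, with 2, 0, 1 and 1 at an unadjusted p below 0.05). Male 1 of the Chr9 strain stood apart. It was the lowest of the 54 males in 15.7% and the highest in 10.4% of all probe sets. The differences of members called in Chr9 against B6 are given with and without it. The member correlations over males are given with and without its strain, and those over differences within strains only with it.

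Akr1c18, the progesterone-inactivating enzyme, was high in MSM and in Chr13C and low in every other strain. The males of B6 had levels of 7.743 and 7.742. Those of MSM had 8.168 and 8.150, those of Chr13C 8.039 and 8.067, and those of Chr13T 7.730 and 7.738. Each Chr13C and MSM male lay above every male of the 27 strains with chromosome 13 of B6, and the Chr13T males lay among them. The single arrays showed the same order, from 7.735 to 7.750 in B6, 7.720 to 7.751 in Chr13T, 8.029 to 8.067 in Chr13C and 8.141 to 8.168 in MSM, so that the arrays of B6 and Chr13T overlapped and no others did.

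The Akr1c18 difference from B6 was 0.417 ± 0.00715 in MSM (SE, n = 2 males per strain), or 57.7 SDs, and 0.311 ± 0.00715 in Chr13C, or 43.0 SDs. In Chr13T it was -0.00842 ± 0.00715, or -1.17 SDs. Chr13C exceeded Chr13T by 0.319, and MSM exceeded Chr13C by 0.106 ± 0.00715, or 14.7 SDs. Measured from the mean of the 27 strains, Chr13C showed 75.1% of the MSM difference and Chr13T -0.0325%. Over the 27 strains the level of Akr1c18 ran from 7.727 in Chr9 to 7.742 in B6, and no gap between neighbours in that order (the widest 0.00271) reached the SD between males of 0.00722.

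Akr1c12 showed the opposite pattern in the same strains. Its level was 8.383 and 8.376 in the males of B6, 8.184 and 8.174 in those of MSM, 8.206 and 8.201 in those of Chr13C, and 8.371 and 8.376 in those of Chr13T. The MSM and Chr13C males lay below all 54 males of the 27 strains, and the Chr13T males overlapped with those of B6. The arrays ran from 8.167 to 8.186 in MSM and from 8.194 to 8.209 in Chr13C, and from 8.368 to 8.386 over Chr13T and B6 together.

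For Akr1c12 the difference from B6 was -0.200 ± 0.00918 in MSM (SE, n = 2 males per strain), or -21.6 SDs, -0.176 ± 0.00918 in Chr13C, or -19.0 SDs, and -0.00606 ± 0.00918 in Chr13T. Chr13C showed 87.2% of the distance of MSM from the 27 strains and Chr13T -1.20%. MSM lay 0.0246 ± 0.00918 below Chr13C, or 2.65 SDs, a smaller step in SDs than the one between these strains for Akr1c18. The 27 strains ran from 8.353 in Chr9 to 8.388 in Chr15, and a single gap between neighbours, 0.00949 between Chr9 and Chr8, exceeded the SD of 0.00927. Akr1c18 and Akr1c12 are separated by Akr1c13 and Akr1c19 in the row, whose differences from B6 in MSM and Chr13C were at most 5.73 SDs.

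**Figure D1:**
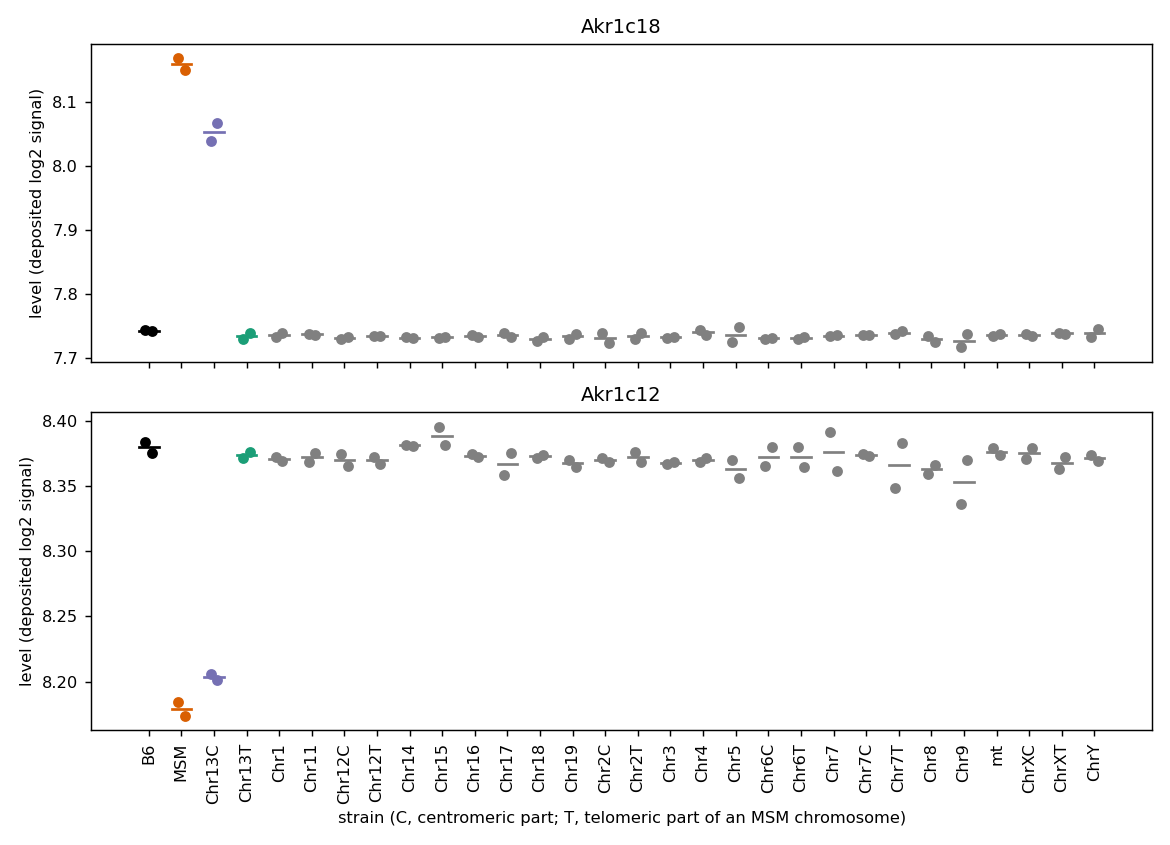
Level of Akr1c18 (top) and Akr1c12 (bottom) in each of the 60 males, as deposited log2 signal (vertical axes, which do not start at 0), by strain (horizontal axis); points are males, short lines the means of the 2 males. MSM and Chr13C stand above the other strains for Akr1c18 and below them for Akr1c12, while Chr13T lies among the 27 strains with chromosome 13 of B6.

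Akr1c13 was higher in MSM and Chr13C by a small amount on the deposited scale that was still several times its narrow spread. Its males had 10.5598 and 10.5597 in B6, 10.5606 and 10.5603 in MSM, 10.5609 and 10.5608 in Chr13C, and 10.5598 and 10.5596 in Chr13T. Each MSM and Chr13C male lay above all 54 males of the 27 strains. The difference from B6 was 0.000704 ± 0.000194 in MSM, or 3.59 SDs, and 0.00113 ± 0.000194 in Chr13C, or 5.73 SDs. Akr1c13 and Akr1c12, whose upstream windows are near copies, thus lay on opposite sides of the B6 level in these strains.

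Akr1c19 lay on the same side as Akr1c13. Its males had 9.911 and 9.908 in B6, 9.917 and 9.913 in MSM, 9.918 and 9.919 in Chr13C, and 9.912 and 9.910 in Chr13T. The Chr13C males lay above all 54 males of the 27 strains, and of the MSM males the lower one did not. It differed from B6 by 0.00521 ± 0.00167 in MSM, or 3.10 SDs, and by 0.00864 ± 0.00167 in Chr13C, or 5.14 SDs. For both genes Chr13C was further from the 27 strains than MSM was, with 145% of the MSM distance for Akr1c13 and 158% for Akr1c19. MSM differed from Chr13C by -2.14 SDs for Akr1c13 and -2.04 SDs for Akr1c19, steps of about 2 times the spread between males.

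Both Akr1c20 probe sets were lower in Chr13C than in B6, by more SDs than in MSM. On 1422061_at the males had 7.4465 and 7.4471 in B6, 7.4463 and 7.4462 in MSM, 7.4451 and 7.4455 in Chr13C, and 7.4470 and 7.4469 in Chr13T. The Chr13C males were below all 54 males of the 27 strains, with a difference from B6 of -0.00146 ± 0.000482, or -3.00 SDs. On 1425387_at the males had 10.0981 and 10.0992 in B6, 10.0982 and 10.0973 in MSM, 10.0943 and 10.0963 in Chr13C, and 10.0995 and 10.0981 in Chr13T. There the Chr13C difference was -0.00337 ± 0.00129, or -2.59 SDs, and its strain mean lay within the range of the 27 strains. In MSM the differences of the probe sets from B6 were -1.06 and -0.692 SDs.

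Of the remaining members, Akr1c14 and Akr1c6 differed from B6 by less than 1 SD in MSM, Chr13C and Chr13T, and Akr1c21 was higher in MSM. Akr1c14 had 10.370 and 10.372 in B6, 10.369 and 10.369 in MSM, 10.370 and 10.371 in Chr13C and 10.370 and 10.369 in Chr13T, and its differences from B6 were at most 0.778 SDs in size. Akr1c6, a main 17-beta-hydroxysteroid dehydrogenase of mouse liver, had 13.38256 in both B6 males, 13.38263 and 13.38259 in MSM, 13.38248 and 13.38253 in Chr13C, and 13.38255 in both Chr13T males, and its differences were at most 0.936 SDs. Akr1c21 had 7.77083 and 7.77084 in B6 and 7.77094 and 7.77095 in MSM, a difference of 2.65 SDs, and 7.77079 and 7.77080 in Chr13C, -0.902 SDs. MSM exceeded Chr13C by 3.56 SDs for Akr1c21. The MSM males lay above all 54 males of the 27 strains for Akr1c6 and Akr1c21, which Chr13C did not share.

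**Figure D2:**
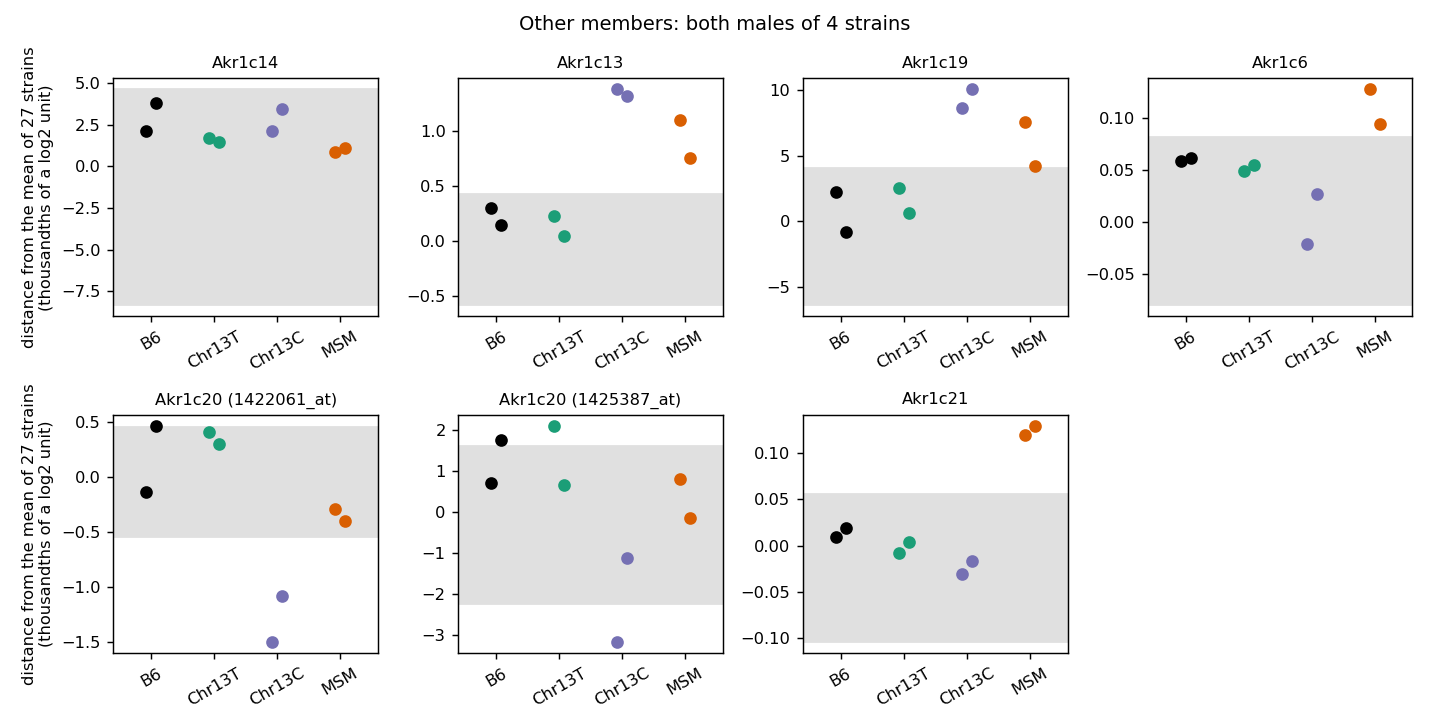
The 7 probe sets of the other members in both males (points) of B6, Chr13T, Chr13C and MSM (horizontal axes), as the distance from the mean of the 27 strains with chromosome 13 of B6 in thousandths of a deposited log2 unit (vertical axes, different in each panel); grey bands span the 27 strain means. Akr1c13 and Akr1c19 are above the band in Chr13C and in MSM, Akr1c20 (1422061_at) is below it in Chr13C, and Akr1c6 and Akr1c21 are above it in MSM alone.

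Counted over the 9 probe sets, the Chr13C mean lay outside the range of the 27 strain means in 5, the MSM mean in 6 and the Chr13T mean in 0. The share of all probe sets was not taken for this count, so it cannot be judged against them. Both Chr13C males lay beyond all 54 males of the 27 strains in 5 probe sets, higher for Akr1c18, Akr1c13 and Akr1c19 and lower for Akr1c12 and Akr1c20 (1422061_at), where 0.289% of all probe sets did so. In MSM this held for 5 probe sets, higher for Akr1c18, Akr1c13, Akr1c6 and Akr1c21 and lower for Akr1c12, against 11.9% of all. In Chr13T it held for 0 (0.155% of all). Against the B6 males alone, both Chr13C males lay beyond them in 8 of the 9, but so they did in 38.6% of all probe sets, and both Chr13T males in 4 of the 9, against 35.7%. These counts describe the members as they were picked and test nothing.

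**Figure D3:**
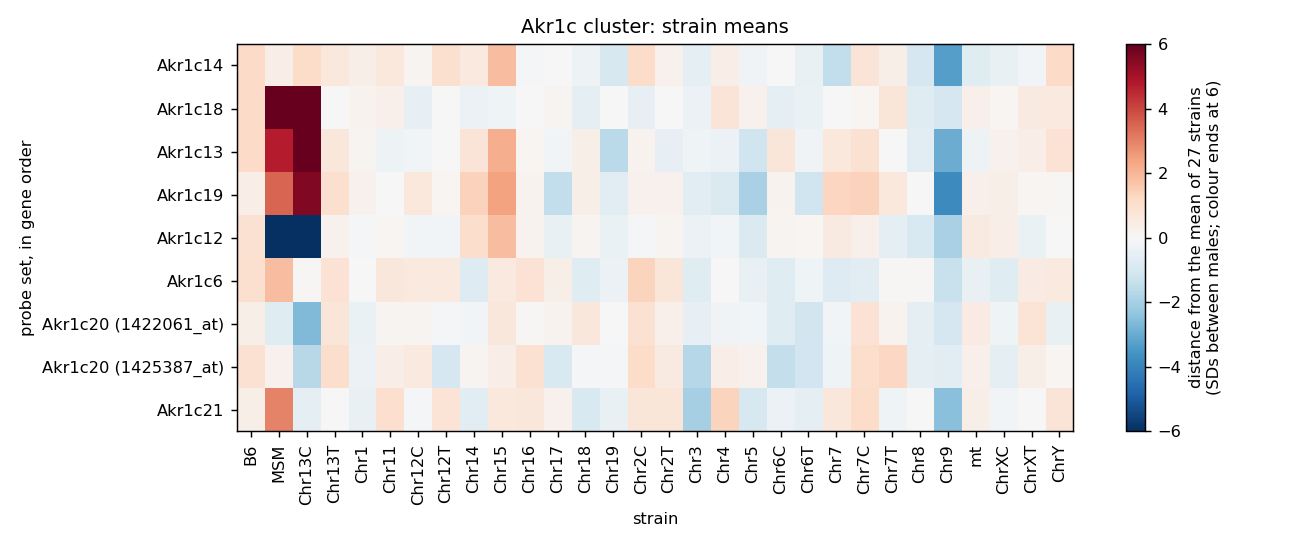
Strain means of the 9 probe sets (rows, in gene order) in the 30 strains (columns), as the distance from the mean of the 27 strains with chromosome 13 of B6 in SDs between males (colour, which ends at 6 in either direction). MSM and Chr13C reach the ends of the colour scale for Akr1c18 and Akr1c12, Chr13T is pale, and Chr9, at -3.80 SDs for Akr1c19, is the lowest of the 27 in 7 rows.

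The genes next to the cluster were taken from the reference order, 9 on the centromeric and 15 on the telomeric side, and were not picked on their values. None of these 24 passed the test in Chr13C (limma, Benjamini-Hochberg, 0.0830% of all probe sets called), where 3 had an unadjusted p below 0.05, or in Chr13T (0.0544% called), where 0 did. In MSM 1 of the 24 passed, Idi1, an isomerase of the cholesterol pathway, at 0.0658 ± 0.0142 above B6 (adjusted p = 0.0012, limma), against 17.9% of all probe sets called and 4 of the 24 at an unadjusted p below 0.05. In Chr13C the Idi1 difference had the other sign, -0.0424 ± 0.0142 (adjusted p = 0.844). Akr1e1, an aldo-keto reductase on the telomeric side of the row, differed from B6 by -0.224 SDs in MSM and 0.43 SDs in Chr13C.

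Along the whole chromosome, the 9 called genes outside the cluster in Chr13C lay at places 104 (Carmil1) to 374 (Isca1) of 702, and the 8 called in Chr13T at places 516 (Polr3g) to 688. The cluster at places 10 to 17 thus fell on the side of the Chr13C calls. The measured genes whose strain means followed Akr1c12 most closely over the 30 strains were Tmem14c (r = 0.983), Bloc1s5 (r = 0.914) and Tdp2 (r = 0.913), and those that followed Akr1c18 were Cdhr2 (r = 0.943), Id4 (r = 0.897) and Sirt5 (r = 0.858). All 6 lie on chromosome 13, and these correlations over 30 strains rest on MSM and Chr13C, which stand apart. Tmem14c, a mitochondrial membrane protein of porphyrin transport, differed from B6 by -0.239 ± 0.00902 in Chr13C. It is named for its likeness to Akr1c12 over strains that include Chr13C, so this difference is given as a description.

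Over the 27 strains with chromosome 13 of B6, other genes came nearest. For Akr1c13 they were Map2k1 (r = 0.870), Ncapd3 (r = 0.799) and Ugt2b36 (r = 0.759), for Akr1c12 Ncapd3 (r = 0.754), Kpna1 (r = 0.749) and Slc17a2 (r = 0.744), and for Akr1c19 Sh3bgrl2 (r = 0.768), Aasdhppt (r = 0.757) and Ncapd3 (r = 0.720). Map2k1, Ncapd3, Sh3bgrl2 and Aasdhppt lie on chromosome 9, and the Chr9 strain has the lowest mean of the 27 for these 3 members. Without that strain (26 strains) the correlation of Akr1c13 was 0.786 with Map2k1 and 0.656 with Ncapd3, that of Akr1c12 with Ncapd3 0.621, and those of Akr1c19 with Sh3bgrl2, Aasdhppt and Ncapd3 0.615, 0.573 and 0.509. Akr1c14 was nearest to the peroxisomal enzyme catalase, Cat (r = 0.794), Plekhh2 (r = 0.786) and Efr3b (r = 0.762). For Akr1c6 they were Mal (r = 0.795), Dgke (r = 0.748) and Pon1 (r = 0.745), for Akr1c20 the calcium-binding protein Rgn (r = 0.816), 4931406C07Rik (r = 0.768) and Rmdn2 (r = 0.744), for Akr1c21 Hrct1 (r = 0.774), Gabrp (r = 0.749) and Selenov (r = 0.733), and for Akr1c18 Sema5b (r = 0.738), Htr3a (r = 0.725) and Cdiptos (r = 0.724). Each was picked as the highest correlation among all genes over 27 strain means, and is given as a description. Htr3a and 4931406C07Rik also lie on chromosome 9. Without the Chr9 strain the correlation of Akr1c18 with Htr3a was 0.661 and that of Akr1c20 with 4931406C07Rik 0.768. Over all 24 pairs the correlations without Chr9 ran from 0.509 to 0.813.

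Whether chromosomes of MSM other than 13 moved the cluster was tested in the 26 other consomic strains, which the choice of the members did not use. None of these strains carries chromosome 10 of MSM, so that chromosome was not tested. Of 234 comparisons with B6 (9 probe sets in 26 strains), 3 passed the test (limma, Benjamini-Hochberg over all probe sets of a contrast), against 0.233% of all comparisons, and 17 had an unadjusted p below 0.05. All 3 were lower, and all 3 were in the strain with chromosome 9 of MSM. Against the mean of the other strains with chromosome 13 of B6, 4 of 234 passed (0.580% of all), again all lower and all in Chr9, with 16 at an unadjusted p below 0.05.

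In Chr9 the steroid dehydrogenase Akr1c14 had 10.356 and 10.364 against 10.370 and 10.372 in B6, a difference of -0.0113 ± 0.00249 (adjusted p = 0.0242, limma, n = 2 males per strain). Akr1c19 had 9.900 and 9.905 against 9.911 and 9.908, -0.00708 ± 0.00167 (adjusted p = 0.0391). Akr1c13 had 10.5587 and 10.5592 against 10.5598 and 10.5597, -0.000803 ± 0.000194 (adjusted p = 0.0473). Against the other strains the adjusted p was 0.0014 for Akr1c19, 0.0053 for Akr1c14, 0.0132 for Akr1c13 and 0.0355 for Akr1c21. In Chr9 0.578% of all probe sets were called against B6 (0.226% lower) and 4.12% against the other strains (1.58% lower).

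The males of Chr9 were unlike each other. From the mean of the 27 strains, male 1 lay at -4.91 SDs for Akr1c14, -5.20 for Akr1c19, -4.20 for Akr1c13 and -4.60 for Akr1c21, and male 2 at -1.74, -2.40, -1.73 and -0.402. Male 1 was the lowest of the 54 males in 7 of the 9 member probe sets, against 15.7% of all probe sets, and male 2 in 0 of the 9 (1.15% of all). Without male 1 the Chr9 calls were lost against either reference, in a fit that rests on 1 male of that strain. The Chr9 differences of Akr1c14, Akr1c19 and Akr1c13 from B6 became -0.00731, -0.00473 and -0.000561. Without either B6 male no call was left against B6, and without Chr9 male 2 there were 7, of which that of Akr1c12 had a difference of -0.0433 ± 0.0101 (adjusted p = 0.00455, limma). The part of this male's general deviation in the member values was not tested.

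At the other end of the order, Chr15 had the highest mean of the 27 strains for Akr1c12, Akr1c13, Akr1c14 and Akr1c19. Its males lay 2.61 and 1.09 SDs above the mean of the 27 for Akr1c12, 2.81 and 1.54 for Akr1c13, and 3.26 and 1.55 for Akr1c19, but no member passed the test in Chr15 against either reference (limma, lowest adjusted p 0.103, background 0.175% against B6 and 0.670% against the other strains). Akr1c18 was lower than B6 in all 26 strains, by 0.00271 to 0.0154, with the lowest adjusted p at 0.291 (limma, in Chr9). That order reflects B6 males at 1.19 and 1.10 SDs above the mean of the 27, and it did not pass the test in any strain. Other members also lay below B6 in most of the 26 strains. The number was 25 for Akr1c13, Akr1c14 and Akr1c6, 24 for Akr1c12, and 23 and 20 for the Akr1c20 probe sets. It was 20 for Akr1c19 and 15 for Akr1c21.

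**Figure D4:**
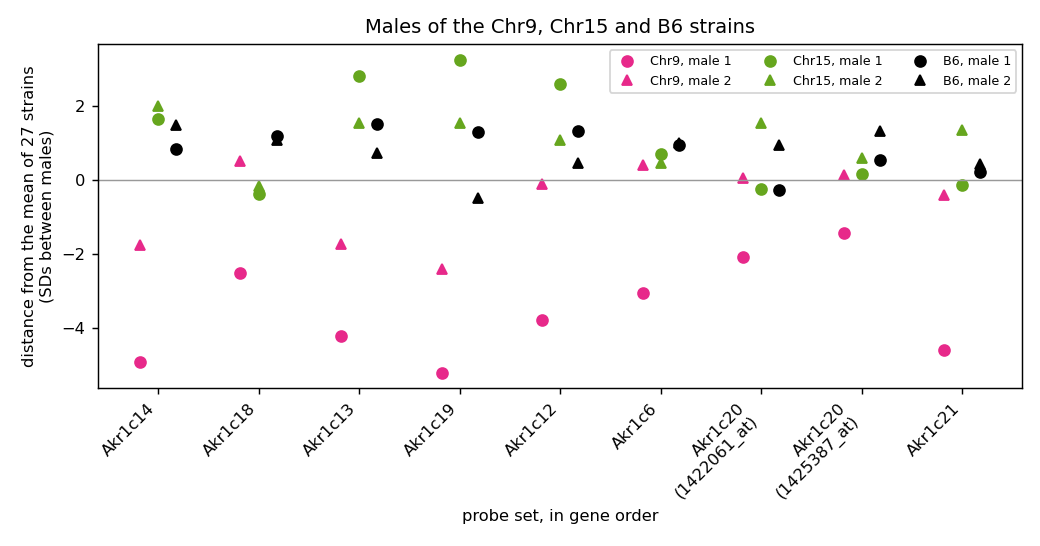
Distance of single males of Chr9, Chr15 and B6 from the mean of the 27 strains with chromosome 13 of B6, in SDs between males (vertical axis), for the 9 probe sets in gene order (horizontal axis); circles are male 1 and triangles male 2. Chr9 male 1 is the lowest point for every probe set, and Chr15 male 1 is the highest for Akr1c13, Akr1c19 and Akr1c12.

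Among the 54 males with chromosome 13 of B6, pairs within blocks of neighbouring genes had higher correlations than pairs across these blocks. Akr1c18 and Akr1c14 were in neither block. Akr1c13, Akr1c19 and Akr1c12, which adjoin each other, had pairwise correlations of 0.715 to 0.784. Akr1c6, both Akr1c20 probe sets and Akr1c21, the next genes in the row, had 0.519 to 0.749. The value of 0.749 is that of the Akr1c20 probe sets with each other, and between different genes the highest was 0.661. Pairs across these blocks had 0.167 to 0.464, and Akr1c18 with any other member 0.0181 to 0.433. Without the Chr9 strain the ranges were 0.630 to 0.711, 0.457 to 0.740, 0.0569 to 0.356 and -0.211 to 0.261 (52 males). Over the differences between the males of a strain, which leave out all differences between strains, they were 0.635 to 0.710, 0.541 to 0.821, -0.0235 to 0.686 and -0.223 to 0.384 (27 strains). The difference between the unlike males of Chr9 is among these 27, and the ranges were not taken without it. Akr1c14 had 0.403 to 0.620 with members other than Akr1c18, 0.309 to 0.546 without Chr9 and 0.313 to 0.611 over the differences within strains. These correlations are over males that share arrays with all other genes. The blocks were set out after the values were seen, and probes of near-identical genes can share signal.

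**Figure D5:**
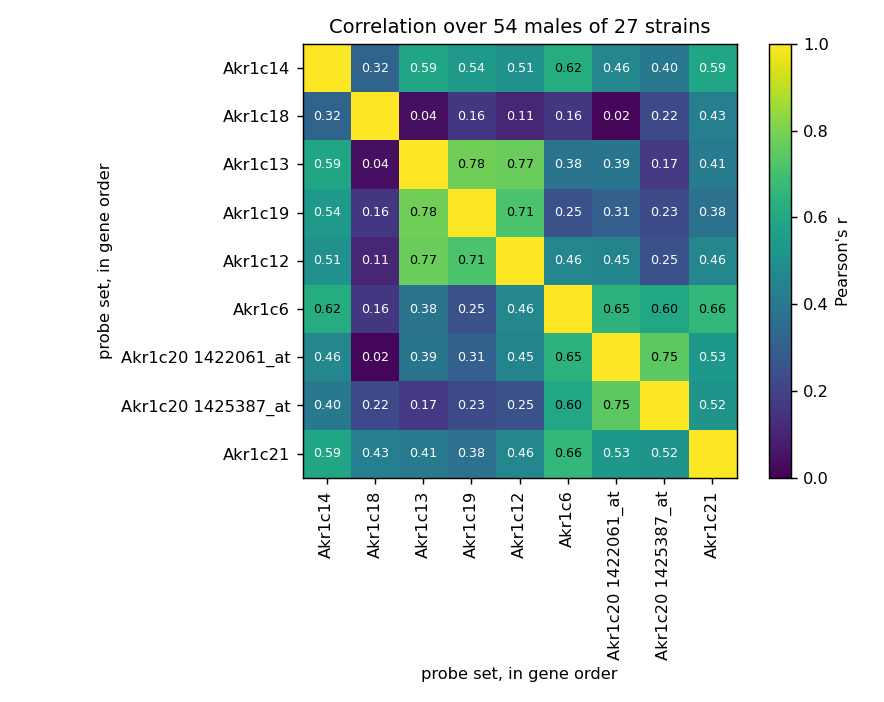
Pearson's r between the 9 probe sets (both axes, in gene order) over the 54 males of the 27 strains with chromosome 13 of B6, printed in each cell and shown as colour. Akr1c13, Akr1c19 and Akr1c12 form a block at 0.715 to 0.784, and the row of Akr1c18 holds the lowest values, down to 0.0181.

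Among aldo-keto reductases outside the cluster none passed the test in Chr13C. Of 12 listed, 10 were measured, and 0 passed the test in Chr13C (0.0830% of all probe sets called) or in Chr13T (0.0544%), with 0 at an unadjusted p below 0.05 in either (limma). The median difference of the 10 was -0.223 SDs in Chr13C and 0.210 SDs in Chr13T. In MSM 2 of 10 were higher, against 11.2% of all probe sets called higher, the aflatoxin aldehyde reductase Akr7a5 by 0.000239 ± 5.28e-05 (adjusted p = 0.0015) and the general aldehyde reductase Akr1a1 by 0.000143 ± 4.14e-05 (adjusted p = 0.0148). Neither call passed with a fit on the strains compared alone.

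In a wider list of steroid and retinoid enzymes, calls were found in MSM. Of 39 genes 31 were measured, and 0 passed in Chr13C or Chr13T (limma, 2 and 1 at an unadjusted p below 0.05). In MSM 10 of 31 passed, 1 higher and 9 lower, against 11.2% of all probe sets called higher and 6.70% lower. Among the lower ones were 3 genes of the 3-beta-hydroxysteroid dehydrogenase family, while Hsd3b7 of the same family did not pass the test. Hsd3b5 fell by 1.62 ± 0.493 (adjusted p = 0.0203, limma), Hsd3b3 fell by 0.620 ± 0.0386 (adjusted p = 9.47e-14) and Hsd3b2 fell by 0.129 ± 0.0128 (adjusted p = 4.87e-09). The retinol dehydrogenase Rdh16 fell by 0.104 ± 0.0110 (adjusted p = 1.59e-08). Without MSM male 1 the count was 6.

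NRF2 is a stress-activated factor whose targets include reductases. Of 16 listed targets 14 were measured, and 0 passed in Chr13C or Chr13T (limma, 3 and 1 at an unadjusted p below 0.05). In MSM 1 was higher and 5 were lower, against 11.2% and 6.70% of all probe sets, while the median difference of the 14 was 0.286 SDs and that of all probe sets 0.749 SDs. Among the lower ones were the glutathione transferase Gstm3, at -0.414 ± 0.112 (adjusted p = 0.00882, limma) and the carbonyl reductase Cbr1, which is also in the steroid list, at -0.0550 ± 0.00877 (adjusted p = 2.53e-05). Of 29 measured markers of other cells and tissues, 8 passed the test in MSM (3 higher and 5 lower, against 17.9% of all probe sets, 11.2% higher and 6.70% lower) and 0 in Chr13C, Chr13T or Chr9 (limma, with 0, 1 and 5 at an unadjusted p below 0.05). In MSM 3 of 5 Kupffer cell markers were lower, with a median difference of the 5 from B6 of -2.85 SDs, 1 of 4 endothelial markers was lower and 1 higher, 1 of 4 stellate markers was lower and 2 of 4 cholangiocyte markers were higher. None of the 3 pancreas, 4 kidney, 4 adrenal cortex and 1 adipocyte markers measured passed in any of these strains. The part of these cells in the MSM values of the Akr1c genes was not tested. In Chr13C the median difference of the 5 Kupffer cell markers was 1.29 SDs, against -0.0170 SDs over all probe sets.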

How the data were processed

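The deposited log2 signals of 120 arrays were used as the authors left them. How they were summarised and normalized, and the log base, is not given in the sources used here; their range (6.34 to 14.8) was read as that of log2 values. Array medians lay between 7.416 and 7.417. The animal number in a sample's title was read as naming the male, a reading no label states. The 45037 probe sets were named from the platform annotation, in which 34945 have 1 gene symbol, 932 several and 9160 none; 34741 matched the reference by gene ID. No filter on low values was used. Arrays of the same male were averaged, and limma 3.58.1 (R 4.3.3) was fitted with 1 mean per strain (30 residual and 0.581 prior degrees of freedom), with Benjamini-Hochberg adjustment within each contrast at 0.05. Values are not absolute and an array has no read depth; 2 males per strain limit the precision. In a test on simulated data for Chr9, changes of 4 SDs were recovered in 42% of cases against B6 and in 90% against the other strains. Changes of 8 SDs were recovered in 100%, and there were 7 and 4 false calls. All simulated males had the same spread within a probe set, so these rates do not cover a deviating male such as Chr9 male 1. Promoter windows were aligned with Biopython 1.88.

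Named were all member probe sets, called genes of the flanks and lists (up to 4 by size), and the 3 genes nearest in pattern to each member. The members and lists were chosen with earlier results of these data known. Probe sequences were not used here, so the part of MSM variants under the probes was not tested, and near-identical genes such as Akr1c12 and Akr1c13 may share signal. Alternatives covered the filter, quantile normalization, single arrays, the fit, and each male left out.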

Additional observations from a re-analysis of the deposited data

How the results depend on the processing

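The 3 calls in the 26 strains against B6 became 1 with quantile normalization, 0 with the first array and 1 with the second array of each male, 0 with a fit on the strains compared alone, 0 with a minimum difference of 0.1, 1 with adjustment over the 26 contrasts together, and 0 to 7 with males left out. The 4 calls against the other strains became 2 with quantile normalization and 0 to 6 with a male left out. Under settings added after the data were seen they became 2 with the first array, 4 with the second array and 0 with the minimum difference. The 2 other aldo-keto reductases called in MSM became 7 with quantile normalization, 1 with the second array, 0 with the separate fit, 0 with the minimum difference and 1 to 2 with males left out. The 10 steroid genes called in MSM became 4 with the minimum difference and 6 to 8 with males left out. For none of these was the cause tested. The Akr1c18 share of 75.1% in Chr13C was 71.8% to 78.3% without single Chr13C males. Of 279 alternative values of member differences in MSM, Chr13C and Chr13T, 252 moved by under 1 SD between males and 25 changed sign. Of the 92 for Akr1c12, Akr1c13, Akr1c18 and Akr1c19 in MSM and Chr13C, 17 moved and 0 changed sign. Tests against B6 share 2 B6 males. No paired analysis was possible because the strains share no replicate numbers.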
